A study of Mus musculus with 6 samples.

Results

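The smooth muscle type contractile genes examined here were Myl9, Tagln, Cnn1, Cnn2, Cald1, Myh11, Lmod1, Smtn, Srf and Myocd, 10 of the 55421 genes in the deposited table. They were found by gene name in the gene abundance table of each library and joined to the count table by gene identifier. All 10 had a single entry, and 9 had enough reads for the fit across genes, Myocd being the exception. The genes were chosen by their expression in the miR-322/-503 against the control libraries, the same counts used here. Their differences are therefore given as a description with no p-value, and neither the number of them past a threshold nor an interval below is independent evidence of a difference.

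The cells were C2C12 mouse myoblasts made to carry 200 CUG repeats, a culture model of myotonic dystrophy type 1 (DM1), a muscle disease in which expanded CUG repeat RNA is retained in the nucleus. The repeats were expressed from a plasmid as part of a GFP transcript, and no untransformed myoblasts enter the comparison. In the control group (CUG200-ctrl) the DM1 myoblasts did not overexpress the microRNAs and, by the study's account, stably carried an empty vector. In the miR-322/-503 group (CUG200-m) they overexpressed the microRNAs miR-322 and miR-503. Both groups carried the repeats and were collected on day 4 of myoblast differentiation, with 3 libraries each. Each group is a cell line of its own in the labels, so a difference between lines cannot be told apart from the effect of the microRNAs. The study's methods speak of biological replicates, and the labels do not say whether the libraries of a group came from separate cultures. The SDs given here therefore measure the spread between these libraries. The SEs of log2 fold changes rest on that spread together with the dispersion of other genes.

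Smooth muscle contracts without striated sarcomeres: calcium and calmodulin activate myosin light chain kinase, which phosphorylates the regulatory light chain of myosin, while actin-binding proteins such as calponin, caldesmon and transgelin decorate the thin filament. The genes for these proteins are controlled by serum response factor (SRF), which binds a short A/T-rich promoter element called the CArG box together with cofactors of the myocardin family. Many of them are also transcribed in immature skeletal myoblasts and in myofibroblasts, and their appearance in cultured cells is therefore not a sign of smooth muscle by itself. MicroRNAs act on messenger RNAs through their seed, bases 2 to 8, which pairs with matching sites in the 3′UTR.

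The mature sequences of the overexpressed microRNAs are shown first because their seeds define the sites searched below. The sequences are from RefSeq (GRCm38.p6), 5′ to 3′, with the seed in capitals.
mmu-miR-322-5p, chrX:53054306-53054327, minus strand: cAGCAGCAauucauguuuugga
mmu-miR-503-5p, chrX:53054027-53054049, minus strand: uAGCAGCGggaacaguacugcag
The sites complementary to these seeds are TGCTGCT for miR-322-5p and CGCTGCT for miR-503-5p, and the seeds differ in their last base. The hairpin genes themselves gave almost no reads. The Mir322 locus held 1, 7 and 2 counts in the control libraries, against 17, 0 and 3 with miR-322/-503, and the Mir503 locus held 1, 1 and 2 against 6, 4 and 5. These values are too low to check the labels.

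Of the 10 genes, 2 held a seed match in the 3′UTR of the GENCODE M21 transcript used (GRCm38), namely Cnn1 with 1 site and Lmod1 with 2, and all 3 sites match miR-322-5p. They are shown with the match in capitals.
Cnn1, match from base 20 of a 3′UTR of 1399 bases, chr9:22108231-22108260, plus strand: ggggcccccaaggggctggcTGCTGCTctt
Lmod1, match from base 650 of a 3′UTR of 1957 bases, chr1:135366738-135366767, plus strand: gacattttcttcacatcaccTGCTGCTgta
Lmod1, match from base 1861 of the same 3′UTR, chr1:135367949-135367978, plus strand: ctgaggtcttaactcctctcTGCTGCTgaa
No match to the miR-503-5p seed was present in the 10 3′UTRs, and Myl9, Tagln, Cnn2, Cald1, Myh11, Smtn, Srf and Myocd held none for either microRNA. For comparison, 24.4% of 13416 tested genes with a 3′UTR of at least 50 bases held a miR-322-5p match and 4.87% held a miR-503-5p match. Their median 3′UTR was 1174 bases, shorter than those of Cnn1 and Lmod1. A match is a description of the letters and not a measured site.

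The promoter windows of RefSeq (GRCm38.p6) run from 250 bases before to 50 bases after each start site. A window was given for 7 of the 10 genes. An exact CArG box lay in the windows of 3 of them, Myl9, Cnn2 and Srf, and in none of the windows of Cnn1, Cald1, Lmod1 and Smtn. Allowing 1 mismatch in the A/T core left the same 3 genes and added a second box in Myl9. Over all 32851 windows an exact box was found in 1.63%, and with 1 mismatch in 9.98%. Counted per gene, as for the members, it was found in 1.81% of 27025 genes, and with 1 mismatch in 11.3%. The box reads the same on both strands, so each match counts for both. The upstream sequences of the 3 genes with a box are shown, followed by those of Cnn1 and Lmod1, the members with the largest differences between the groups. Each ends before the first annotated base of the gene, is written in the direction of transcription and has its CArG boxes in capitals.
Myl9, chr2:156775214-156775419, plus strand, 206 bases: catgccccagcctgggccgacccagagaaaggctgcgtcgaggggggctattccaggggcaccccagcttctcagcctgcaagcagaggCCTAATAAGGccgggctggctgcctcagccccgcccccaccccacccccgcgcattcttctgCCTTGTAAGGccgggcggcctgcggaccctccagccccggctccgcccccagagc
Cnn2, chr10:79988350-79988583, plus strand, 234 bases: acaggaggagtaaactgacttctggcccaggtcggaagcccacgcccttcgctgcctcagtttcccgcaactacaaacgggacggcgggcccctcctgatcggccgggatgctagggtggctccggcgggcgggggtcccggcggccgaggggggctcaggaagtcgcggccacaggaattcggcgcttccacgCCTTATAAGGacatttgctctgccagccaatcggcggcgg
Srf, chr17:46556176-46556412, minus strand, 237 bases: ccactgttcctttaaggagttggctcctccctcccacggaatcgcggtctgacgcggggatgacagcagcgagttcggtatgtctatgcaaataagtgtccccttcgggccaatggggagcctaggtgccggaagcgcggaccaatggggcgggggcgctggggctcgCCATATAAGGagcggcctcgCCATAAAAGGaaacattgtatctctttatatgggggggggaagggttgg
Cnn1, chr9:22099003-22099215, plus strand, 213 bases: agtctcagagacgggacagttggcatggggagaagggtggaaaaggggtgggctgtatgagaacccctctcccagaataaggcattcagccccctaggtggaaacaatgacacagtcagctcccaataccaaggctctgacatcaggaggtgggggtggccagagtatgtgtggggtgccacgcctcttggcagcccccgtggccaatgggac
Lmod1, chr1:135324563-135324806, plus strand, 244 bases: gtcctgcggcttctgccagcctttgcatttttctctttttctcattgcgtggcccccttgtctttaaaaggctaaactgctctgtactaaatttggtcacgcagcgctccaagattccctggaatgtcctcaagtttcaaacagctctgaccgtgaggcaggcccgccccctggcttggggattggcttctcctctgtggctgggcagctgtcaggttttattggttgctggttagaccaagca
In Myl9 the exact box starts at base -161 from the RefSeq start site and the box with 1 mismatch at base -99. In Cnn2 the box starts at base -56. Srf, which is known to act on its own promoter, has 2 exact boxes, starting at bases -82 and -62. The windows with a box thus belong to a gene that was far lower in the miR-322/-503 group (Myl9), one that was slightly lower (Cnn2) and one that was not (Srf).

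The levels of the members spanned more than 4 orders of magnitude. On the TPM scale (a level per transcript length that sums to the same total in every library, so that genes can be compared), Tagln stood first in the control at 965 ± 13.8 TPM (mean ± SD, n = 3). Cald1 at 407 ± 24.9 TPM and Myl9 at 391 ± 11.3 TPM followed, and their library values overlapped. Cnn2 at 215 ± 7.74, Smtn at 125 ± 3.97, Srf at 33.0 ± 3.12, Cnn1 at 29.4 ± 0.781 and Lmod1 at 11.2 ± 1.35 TPM came next, with no overlap between neighbours in that order. Myh11 and Myocd, the smooth muscle myosin heavy chain and the cofactor that define the smooth muscle lineage, lay near 0 at 0.0753 and 0.0442 TPM. The cells therefore transcribed thin filament and light chain genes of this type with hardly any transcript of the smooth muscle motor or of its master cofactor.

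In the miR-322/-503 group Cald1 stood first at 298 to 321 TPM. Tagln followed at 176 ± 7.60, Cnn2 at 152 ± 8.12, Smtn at 113 to 140 and Myl9 at 75.1 ± 2.64 TPM, with no overlap between neighbours. Srf lay at 34.6 ± 0.606 TPM, and Cnn1 at 1.56 ± 0.388 and Lmod1 at 1.47 ± 0.079 TPM overlapped. Myocd and Myh11 were again last, at 0.0403 and 0.0305 TPM.

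**Figure D1:**
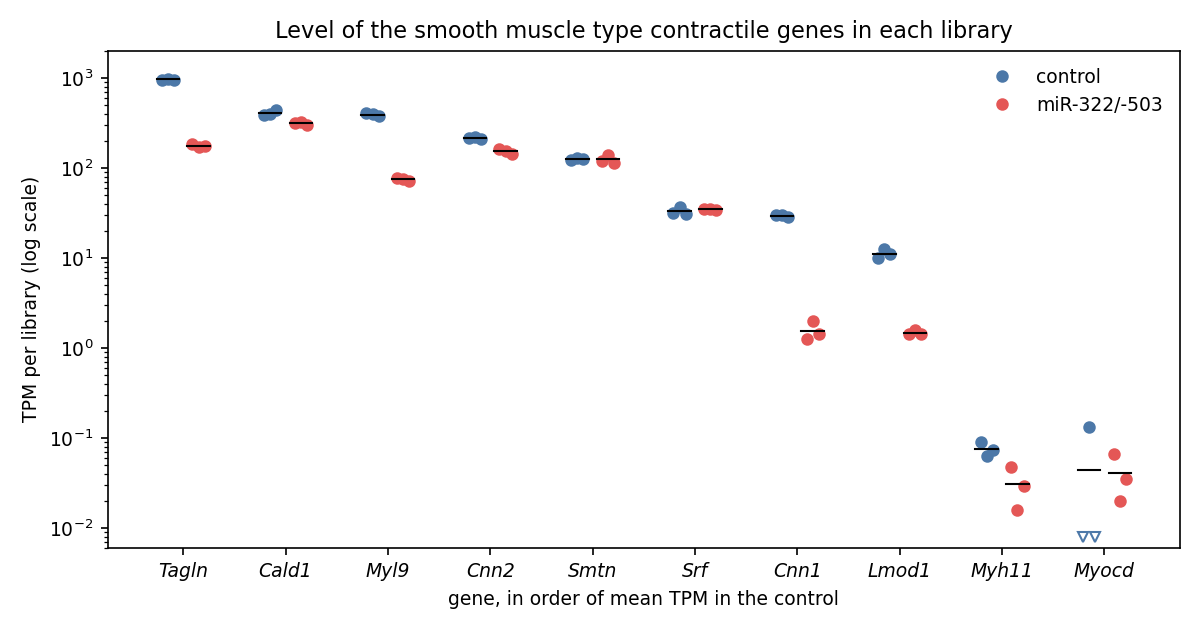
Level of each gene in each library in TPM on a log axis, with the control in blue, the miR-322/-503 group in red and the mean of 3 libraries as a black line; open triangles at the lower edge mark libraries at 0. Tagln, Myl9, Cnn1 and Lmod1 show a wide gap between the groups, Cald1 and Cnn2 a narrow one, and Smtn and Srf overlap.

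The summed level of the 10 genes was 2158, 2199 and 2171 TPM in the control libraries and 894, 898 and 838 TPM in the miR-322/-503 libraries. Its makeup differed as well. Tagln gave 44.3% ± 0.307 of the sum in the control and 20.1% ± 1.04 in the miR-322/-503 group (mean ± SD, n = 3), and Myl9 gave 18.6%, 17.8% and 17.5% in the control libraries and 8.57% ± 0.145 with miR-322/-503. Cald1 went the other way in share, from 18.7% ± 1.17 to 35.5% ± 0.268, although its own level was lower. The ratio of Tagln to Cald1 was 2.47, 2.48 and 2.20 in the control libraries and 0.584, 0.528 and 0.583 in the miR-322/-503 libraries.

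The difference between the groups was measured on CPM (counts relative to the library total, scaled by the TMM factors of edgeR), which serve to compare one gene between libraries. Of the 9 members in the fit, 6 were lower at a Benjamini-Hochberg adjusted p under 0.05 by the quasi-likelihood test of edgeR, as were 15.5% of the 18140 genes tested. None was higher at that threshold, against 13.2% of all tested genes. With the further cut-off of the study, a log2 fold change past 1 in size, 4 members were lower (5.29% of all tested genes) and 0 were higher (4.59%). These counts follow from how the genes were chosen and are no evidence of their own. The 4 members past the fold cut-off were Myl9, Tagln, Cnn1 and Lmod1, and Cnn2 and Cald1 were the others below the p threshold. Myh11, Smtn and Srf did not pass. The median log2 fold change over the 9 was -1.18, with a range from -4.52 to 0.11, beside a median of -0.01 over all tested genes, of which 5% lay below -1.39 and 2.93% below -2. That median is the value of Myh11, which had almost no reads. It was -1.42 without Myh11, a choice made after seeing the data, and -0.50 on the log2(TPM + 1) scale. In bulk RNA, fewer cells with a transcript and less of it per cell cannot be told apart.

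Among the actin-binding proteins of the thin filament, Tagln, Cnn1, Cnn2 and Cald1, the differences ran from slight to very large. Tagln (transgelin or SM22, an actin cross-linking protein of the calponin family, chr9:45929619-45936058) measured 789, 823 and 799 CPM in the control libraries and 151, 139 and 154 CPM in the miR-322/-503 libraries. The groups lay far apart with little spread inside either. Its log2 fold change was -2.44 (SE 0.06), a level 5.43-fold lower. Tagln shares 3627 bases with the antisense gene Gm48529 and 108 bases with Pcsk7 on the opposite strand. Gm48529 averaged 3184 counts in the control and 910.3 in the miR-322/-503 libraries, where Tagln itself had between 61080 and 67987 and between 10429 and 14406 counts. Whether counting used strand is not stated, so reads of the pair cannot be told apart.

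Cnn1 (calponin 1, which binds actin and inhibits the myosin ATPase, chr9:22099216-22109630) had the largest difference of the 9. It measured 34.8, 35.4 and 34.3 CPM in the control libraries and 1.20, 1.76 and 1.62 CPM in the miR-322/-503 libraries. The control libraries were nearly equal, and every miR-322/-503 library held a small remnant, from 114 to 132 counts. The log2 fold change was -4.52 (SE 0.15), a level 22.9-fold lower. On the log2(TPM + 1) scale, which understates the change of low genes, the difference was -3.58.

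Cnn2 (calponin 2, the calponin of many non-muscle cells, chr10:79988584-79996062) measured 277, 289 and 269 CPM in the control and 204, 196 and 198 CPM with miR-322/-503. The groups did not overlap, but the gap was small. The log2 fold change was -0.48 (SE 0.06), a level 1.40-fold lower. Cald1 (caldesmon, an actin and calmodulin-binding inhibitor of the myosin ATPase, chr6:34598500-34775473) measured 750, 767 and 843 CPM in the control libraries, against 595, 619 and 538 CPM with miR-322/-503. Its libraries spread more than those of Cnn2 and still did not overlap. The log2 fold change was -0.43 (SE 0.07), a level 1.35-fold lower. Counts per gene cannot separate the long caldesmon of smooth muscle from the short form of other cells.

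Myl9 (a regulatory light chain of smooth muscle and non-muscle myosin, the substrate of myosin light chain kinase, chr2:156775420-156781658) measured 230, 225 and 219 CPM in the control and 44.4, 42.8 and 43.9 CPM in the miR-322/-503 group. Both groups were tight and lay far apart. The log2 fold change was -2.36 (SE 0.05), a level 5.14-fold lower. Myh11 (smooth muscle myosin heavy chain, chr16:14194535-14291372) held only 24, 18 and 22 counts in the control libraries, against 16, 5 and 8 counts with miR-322/-503. The groups did not overlap, but few reads lie behind them. About 4 counts appear to stand for 1 read pair, since in every library more genes were at 4 counts than at 3 or at 5, an inference from the values on which the floor and the read pair numbers given here rest. As read pairs summed over the libraries of a group, 16 stood against 7, a ratio after scaling for depth of 0.45 with a 95% exact interval from 0.156 to 1.16 that covers counting error only. The interval includes 1.

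Lmod1 (leiomodin 1, an actin filament nucleator of smooth muscle, chr1:135324807-135368065) measured 20.5, 26.4 and 22.8 CPM in the control libraries, against 2.90, 3.21 and 3.18 CPM with miR-322/-503. The lowest control library stood far above the highest miR-322/-503 library. The log2 fold change was -2.91 (SE 0.12), a level 7.51-fold lower, and the difference on the log2(TPM + 1) scale was -2.30. Smtn (smoothelin, an actin-associated protein with a smooth muscle and a vascular isoform that gene counts do not separate, chr11:3517523-3540612) measured 192, 210 and 198 CPM in the control and 186, 201 and 191 CPM with miR-322/-503. The groups overlapped, and the log2 fold change was -0.05 (SE 0.06).

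Of the regulators among the members, Srf (the transcription factor that binds the CArG box, chr17:46548329-46556175) measured 39.6, 40.3 and 37.4 CPM in the control libraries, against 42.4, 42.4 and 42.0 CPM with miR-322/-503. The libraries with miR-322/-503 lay just above the control libraries, with a log2 fold change of 0.11 (SE 0.06) that did not pass the threshold. Myocd (myocardin, chr11:65176561-65269989) held 0, 29 and 0 counts in the control libraries, against 16, 4 and 8 counts with miR-322/-503. The groups overlapped, and 1 control library held all of the control counts. Summed as read pairs, 7 stood against 7, with a ratio of 1.03 and a 95% exact interval from 0.308 to 3.44. On CPM, over the 10 genes, the miR-322/-503 libraries lay wholly below the control libraries for 7 (23.5% of all tested genes did so) and wholly above for 1, Srf (21.6%). In TPM the Srf libraries overlapped, at 31.1 to 36.6 in the control and 34.0 to 35.2 with miR-322/-503.

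**Figure D2:**
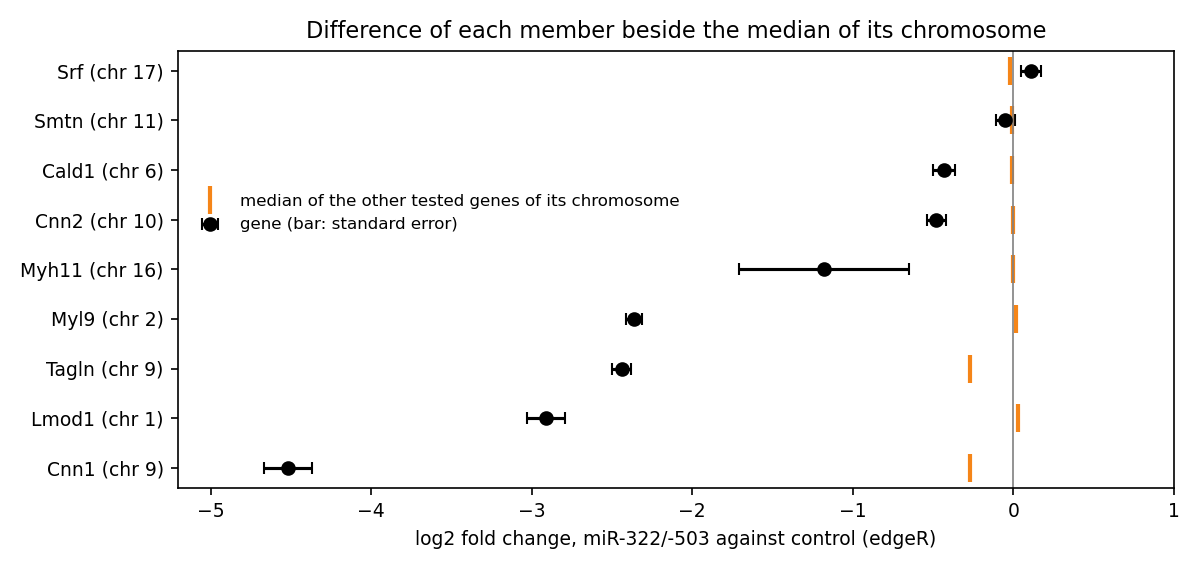
Log2 fold change (miR-322/-503 against control, edgeR) of the 9 members in the fit, with bars for the standard error, and in orange the median of the other tested genes of the same chromosome. Cnn1 lies lowest at -4.52 and Srf highest at 0.11, and the chromosome medians lie between -0.27 and 0.03.

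Tagln and Cnn1 lie on chromosome 9, where the median log2 fold change of the other 1013 tested genes was -0.27. Relative to that median Tagln was at -2.17 and Cnn1 at -4.25. Among the tested genes within 5 Mb on each side the median was -0.27 around Tagln (103 genes) and -0.34 around Cnn1 (98 genes). The chromosomes of the other tested members had medians between -0.02 and 0.03. The part of the chromosome-wide shift in the values of Tagln and Cnn1 was not tested.

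The close relatives of the members were set beside them to see whether whole families differed. The list of 13 paralogues had 4 genes that fell and 2 that rose at an adjusted p under 0.05, 7 that did not pass, and a median log2 fold change of 0.05. Tagln2, the transgelin of non-muscle cells, measured 168 ± 5.20 CPM in the control and 178 ± 19.4 CPM in the miR-322/-503 group (log2 fold change 0.08, SE 0.09, edgeR adjusted p 0.524). Tagln made up 82.6% ± 0.312 of the summed TPM of Tagln, Tagln2 and Tagln3 in the control and 45.3% ± 3.13 with miR-322/-503, and Tagln2 was the more abundant of the pair in every miR-322/-503 library. That sum was 1168 ± 15.5 TPM in the control and 389 ± 35.7 TPM in the miR-322/-503 group.

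The calponins were dominated by Cnn3, the acidic calponin of non-muscle cells, in both groups. Cnn3 measured 467 ± 16.4 CPM and 437 ± 40.2 CPM (log2 fold change -0.10, SE 0.08, edgeR adjusted p 0.415). Cnn1 made up 4.30%, 4.35% and 4.37% of the calponin TPM in the control libraries and 0.204%, 0.351% and 0.282% in the miR-322/-503 libraries. The summed calponin level was 677 ± 22.5 TPM in the control and 562 ± 48.6 TPM with miR-322/-503, and Cnn1 was a small part of it in both groups.

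The leiomodins moved in different directions. Lmod1 was lower, Lmod2, the leiomodin of heart and skeletal muscle, fell from 52.8 ± 2.01 to 35.1 ± 1.32 CPM (log2 fold change -0.59, SE 0.06, edgeR adjusted p 4.54e-04), and Lmod3, which nucleates skeletal thin filaments, rose from 13.4 ± 0.741 to 35.2 ± 4.08 CPM (log2 fold change 1.39, SE 0.11, adjusted p 8.34e-05). The share of Lmod1 in the leiomodin TPM was 15.2% ± 1.57 in the control and 2.27% ± 0.045 with miR-322/-503, and that of Lmod3 was 15.7% ± 0.249 and 46.1% ± 2.02. The summed level of the 3 leiomodins was 73.4 ± 3.08 and 64.5 ± 4.55 TPM.

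Among the regulatory light chains Myl9 made up 39.8%, 30.3% and 37.2% of the TPM of Myl9, Myl12a and Myl12b in the control libraries and 7.74%, 7.39% and 8.49% in the miR-322/-503 libraries. Myl12b rose (log2 fold change 0.47, SE 0.06, edgeR adjusted p 1.40e-03), while Myl12a measured 419 ± 82.4 CPM in the control and 477 ± 37.3 CPM with miR-322/-503 (adjusted p 0.358). Myl12a and Myl12b are near-identical neighbours, and how reads were divided between them is uncertain. Of the myosin heavy chains that can replace the smooth muscle form, Myh9 gave 92.4% ± 0.517 of the summed TPM of Myh9, Myh10, Myh11 and Myh14 in the control and 92.9% ± 0.481 with miR-322/-503. Myh9 fell from 1697 ± 46.4 to 1410 ± 79.6 CPM (log2 fold change -0.27, SE 0.06, adjusted p 0.0105) and Myh10 from 123 ± 0.817 to 96.4 ± 2.98 CPM (log2 fold change -0.36, SE 0.05, adjusted p 1.69e-03). The summed TPM of the 4 was 475 ± 8.11 in the control and 389 ± 28.9 with miR-322/-503, and Myh11 gave 0.0159% of it in the control.

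**Figure D3:**
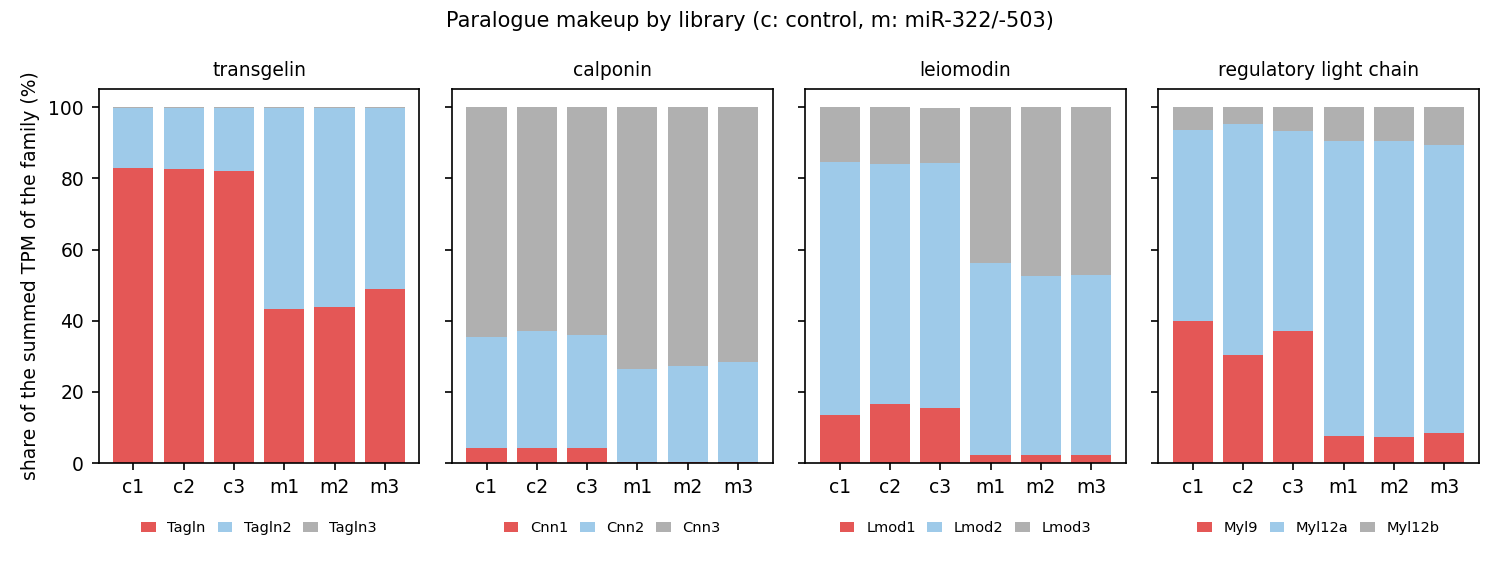
Share of each paralogue in the summed TPM of its family, in percent, for each control (c1 to c3) and miR-322/-503 (m1 to m3) library. The red segments, Tagln, Cnn1, Lmod1 and Myl9, are smaller in every miR-322/-503 library, where Tagln2, Cnn3, Lmod3 and Myl12a hold larger shares.

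Other genes of smooth muscle contraction and SRF signaling, 113 in 6 lists, were read against the members. Of the 109 tested, 41 fell and 29 rose at an adjusted p under 0.05, and 20 and 9 of them passed the fold cut-off, with a median log2 fold change of -0.05. These shares of 37.6% and 26.6% stand beside 15.5% and 13.2% of all tested genes.

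The other genes typical of smooth muscle, 20 in the list and 18 tested, divided into 9 that fell and 6 that rose, with a median of -0.65. Acta2, the smooth muscle alpha actin, measured 5925, 6136 and 5855 CPM in the control libraries and 2768, 2633 and 2877 CPM in the miR-322/-503 libraries. Its fall was smaller than those of Tagln, Myl9, Cnn1 and Lmod1 in size (log2 fold change -1.11, SE 0.05, edgeR adjusted p 5.70e-06). Actg2, the enteric smooth muscle gamma actin, fell from 92.6 ± 5.31 to 9.91 ± 0.922 CPM (log2 fold change -3.22, SE 0.09, adjusted p 1.19e-06). Aoc3, an amine oxidase of smooth muscle and adipocyte surfaces, fell from 24.4 ± 1.30 to 0.613 ± 0.267 CPM (log2 fold change -5.30, SE 0.30, adjusted p 2.06e-05). Kcnmb1, the beta subunit of the smooth muscle BK potassium channel, had 121, 85 and 93 counts in the control libraries, against 0, 8 and 0 with miR-322/-503, at least 8.29-fold lower against a floor of 3 read pairs per library. Against this direction, Pdlim3, a PDZ-LIM protein of actin filaments and Z-discs, rose from 25.6 ± 1.17 to 157 ± 1.68 CPM (log2 fold change 2.62, SE 0.06, adjusted p 5.55e-07). Genes listed as typical of smooth muscle thus moved in both directions, as the actins and Aoc3 on one side and Pdlim3 on the other show.

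The list for phosphorylation of the myosin light chain, the step that acts on the Myl9 protein, had 4 genes that fell and 7 that rose of 19 tested, with a median of 0.19. Mylk, the myosin light chain kinase of smooth muscle and non-muscle cells, rose from 14.3 ± 1.38 to 65.6 ± 3.70 CPM (log2 fold change 2.20, SE 0.09, edgeR adjusted p 5.59e-06), opposite in direction to Myl9. Mylk3, the cardiac kinase, fell from 3.30 ± 0.425 to 0.570 ± 0.311 CPM (log2 fold change -2.54, SE 0.40, adjusted p 2.81e-03), and lies in a stretch of chromosome 8 where 113 tested genes within 5 Mb had a median of -0.80. Ppp1r14c, an inhibitor of myosin phosphatase, rose from 1.95 ± 0.453 to 13.4 ± 1.71 CPM (log2 fold change 2.78, SE 0.20, adjusted p 5.77e-05). Ppp1r14a (CPI-17), the phosphatase inhibitor of smooth muscle, had 102, 101 and 63 counts in the control libraries, against 0, 17 and 0 with miR-322/-503, with a fitted log2 fold change of -3.89 (SE 1.14) and an edgeR adjusted p of 3.99e-02. That call was lost with DESeq2 (adjusted p 0.164), without the filter on low counts (0.0612) and without any 1 of the control libraries or of miR-322/-503 replicates 1 and 3, where the adjusted p lay between 0.0655 and 0.106, and the fold change in these settings stayed between -4.10 and -3.25. The call was kept with the size factors of DESeq2 in edgeR (0.0404), a replicate block (0.0433), counts per read pair (0.00629) and limma on both TPM scales (0.00176 and 0.00593). It was also kept without miR-322/-503 replicate 2 (0.00165), which held all of the counts of its group and without which the fitted fold change was -9.51.

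The cofactors and regulators of SRF, 19 tested, had 5 genes that fell and 7 that rose, with a median of 0.10. The number that rose was 4 without control replicate 2, 4 without miR-322/-503 replicate 2 and 3 with limma on either TPM scale, so more genes rose than fell only under some of the settings. Mrtfa, the actin-sensing cofactor MRTF-A, measured 50.2, 49.1 and 72.4 CPM in the control and 68.3, 82.6 and 43.6 CPM in the miR-322/-503 libraries. The groups overlapped widely (log2 fold change 0.18, SE 0.24, edgeR adjusted p 0.641), and without miR-322/-503 replicate 2 the value was -0.03 (adjusted p 0.946). Mrtfb rose from 57.9 ± 3.07 to 78.6 ± 3.55 CPM (log2 fold change 0.44, SE 0.06, adjusted p 1.82e-03). Limma did not make that call on log2(TPM + 1) (0.33, adjusted p 0.0593) or on log2(TPM + 0.1) (0.35, adjusted p 0.0565). Mamstr, a MEF2 coactivator with the same DNA-binding cofactor domain, rose from 0.540 ± 0.384 to 3.04 ± 0.301 CPM (log2 fold change 2.49, SE 0.45, adjusted p 5.44e-03). Its counts were 24, 27 and 83 in the control libraries, and without control replicate 3, the highest, the log2 fold change was 3.25. Fhl2 (log2 fold change -0.82), Prrx1 (-0.74) and Csrp2 (-0.66), which are known to modulate SRF-dependent transcription, fell.

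Known SRF targets were read as 2 lists. Of 27 cytoskeletal targets of SRF and MRTF, 9 fell, 5 rose and 13 did not pass, with a median log2 fold change of 0.01. The matricellular genes Ccn1 (log2 fold change -1.72, SE 0.06, edgeR adjusted p 3.27e-06), Thbs1 (-1.45, SE 0.04) and Ccn2 (-1.30, SE 0.09) were the largest falls of that list. Filip1l, a filamin-binding protein, rose (0.93, SE 0.11). An exact CArG box was present in the promoter window of 5 of the 23 listed targets with a window. Of 13 tested SRF-dependent immediate-early genes, 10 fell and 2 rose, with a median of -1.63. Fosb fell from 284 ± 32.3 to 6.23 ± 1.89 CPM (log2 fold change -5.51, SE 0.24, adjusted p 5.95e-06) and Fos from 337 ± 27.1 to 25.6 ± 5.87 CPM (log2 fold change -3.72, SE 0.17, adjusted p 7.99e-06). Nr4a1 (-2.79, SE 0.14) and Ier2 (-2.64, SE 0.12) fell as well, Ier2 within a stretch of chromosome 8 where 120 tested genes had a median of -0.79. Among the members, Srf, Smtn, Cnn2, Cald1 and the sparse Myh11 lay within the range of the cytoskeletal targets, whose log2 fold changes ran from -1.72 to 0.93, and Tagln, Myl9, Lmod1 and Cnn1 lay below it. Promoter windows with an exact CArG box were found for 2.10% of 666 genes called below -1 and 1.65% of 544 called above 1, beside 1.60% of all tested genes with a window.

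**Figure D4:**
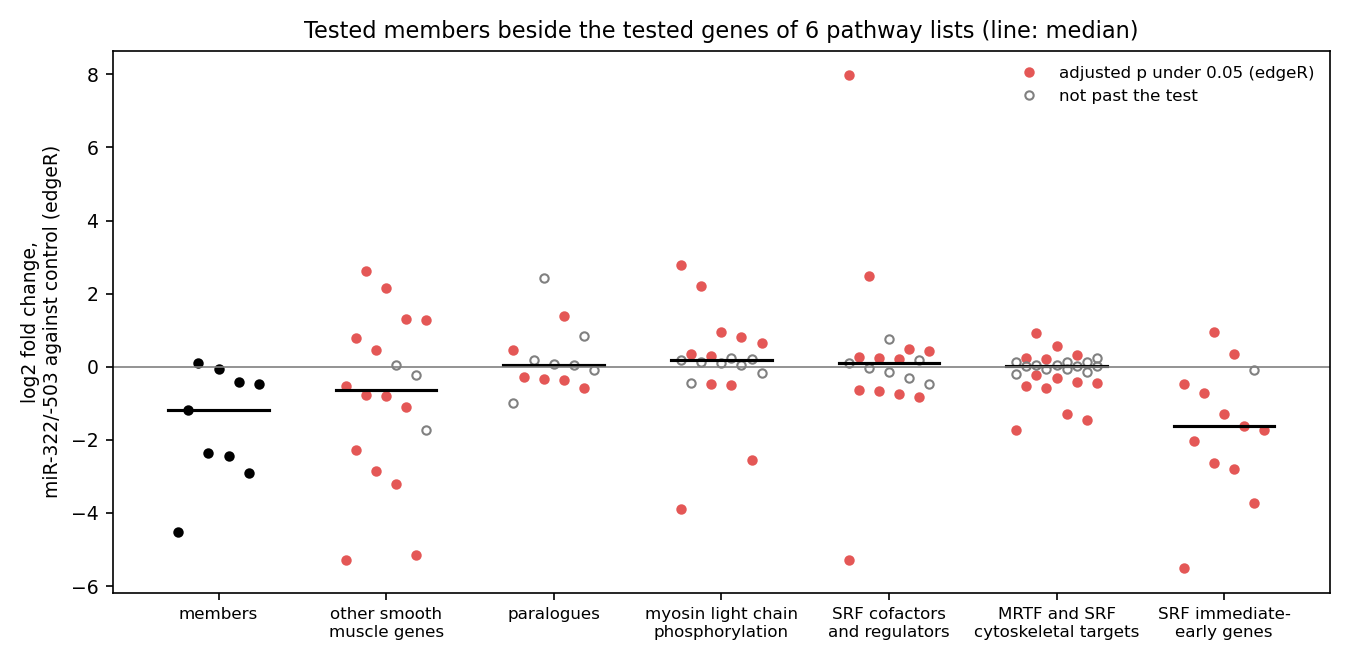
Log2 fold change (miR-322/-503 against control, edgeR) of the tested members (black, no test) and of the tested genes of 6 lists, red where the adjusted p was under 0.05 and open grey otherwise, with the list median as a black line. The members have a median of -1.18, which is the value of the sparse Myh11 (-1.42 without it, -0.50 on log2(TPM + 1)), the immediate-early genes of -1.63 and the cytoskeletal targets of 0.01; fitted values of genes with almost no counts in one group depend on the prior count.

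Markers of the cell types the cultures could hold were measured in the same libraries. Of 13 skeletal muscle markers 8 rose and 1, Myog, fell, with a median of 0.37, and their summed level was 3713 to 4032 CPM in the control and 4729 to 4948 CPM with miR-322/-503. Among them Mef2c (log2 fold change 3.61), Tnnt3 (1.04), Ckm (0.87) and Des (0.65) rose, Myog fell (-0.74), and Myod1 rose by 0.37 with an adjusted p of 2.70e-02 in edgeR. That call was lost without any 1 of the miR-322/-503 libraries (0.0575 to 0.0842). It was also lost with limma on log2(TPM + 1) (0.0593) and log2(TPM + 0.1) (0.0585), and the Myod1 log2 fold change in these settings was 0.34 to 0.39. Of 9 fibroblast markers, 7 tested, 6 fell and 1 rose, and their sum was 17428 to 18242 CPM in the control and 11147 to 11394 CPM in the miR-322/-503 group. Lum (-3.19), Postn (-2.96), Col1a2 (-1.19) and Pdgfra (-0.74) were the largest falls. The marker that rose was Col1a1, a chain of type I collagen, from 1835 ± 70.4 to 2652 ± 125 CPM (log2 fold change 0.53, SE 0.05, edgeR adjusted p 3.23e-04).

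Of 8 mural cell markers (pericytes and vascular smooth muscle), 5 tested, Pdgfrb (-1.18) and Cspg4 (-0.42, and -0.15 relative to the median of chromosome 9) fell and Notch3 rose (1.26), and the sum was 978 to 994 CPM in the control and 585 to 631 CPM with miR-322/-503. The 3 untested ones, Abcc9, Kcnj8 and Higd1b, were at or under the floor of 3 read pairs in all libraries. Endothelial markers were near 0, with 4 of 6 at or under the floor and a sum of 1.59 to 1.98 CPM in the control and 3.89 to 5.57 CPM with miR-322/-503, where Tek rose (1.90). The part of a change in cell makeup in the levels of the members was not tested.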

How the data were processed

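RNA-seq libraries of 6 samples were analysed, 3 control and 3 miR-322/-503, grouped by the sample titles in the labels. Per the study's methods, the authors used Trim Galore for trimming, HISAT2 for alignment to GRCm38 and StringTie for counting. Versions, annotation and strand setting are not given in the sources used here. The deposited table holds estimated counts per gene, whole numbers. That about 4 counts stand for 1 read pair was inferred from the excess of genes at 4 and 8 counts (865 to 1025 genes per library at 4 counts against 400 to 493 at 3), and is not stated by the authors. Library totals were 73532084 to 92157388 counts, about 18383021 to 23039347 read pairs, so 12 counts (3 read pairs) were taken as the floor, which covers counting error only. The deposited abundance tables hold coverage, FPKM and TPM for each gene as the authors computed them. TPM was used for levels, FPKM to check their order, and coverage served no result. Of 55421 genes, 28405 were above 0 in some library, and no column was left without a sample.

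Counts were fitted in R 4.3.3 with edgeR 4.0.16 (filterByExpr, TMM factors, quasi-likelihood test, group as the only term) and p-values were adjusted by Benjamini-Hochberg over 18140 genes. edgeR was checked on simulated counts with known changes. Alternatives were DESeq2 1.42.0 and its size factors, no filter on low counts, a stricter filter (10 counts per library), limma 3.58.1 on log2(TPM + 1) and log2(TPM + 0.1), counts per read pair, a replicate block, each library left out in turn, and values minus the chromosome median. All libraries were kept as separate samples. Between replicates of a group the chi-square per degree of freedom, on counts divided by 4, was 14.8 to 21.3, where sampling of read pairs alone would give about 1. This does not show whether they are biological or technical replicates.

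Motifs were searched on RefSeq promoter windows and microRNAs (GRCm38.p6) and on GENCODE M21 3′UTRs. Of 55240 gene IDs found in that annotation, 54985 had the same start and end as the deposited tables. Tables were joined with Python 3.11.15. The members and the gene lists were chosen with earlier results of these data known. Named genes were the 10 members, 11 further genes of the pathway and muscle markers, and up to 4 genes per list with an adjusted p under 0.05, 1 CPM or more on average in the group with more, and the largest change. Col1a1, Myh9 and Myl12a, named beside their families, and the hairpin loci and overlapping genes were added after their values were seen.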

Additional observations from a re-analysis of the deposited data

How the results depend on the processing

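The 9 fitted members kept their direction under 15 alternative settings each (13 for Myh11, which the stricter filter and the counts per read pair left untested), and 126 of 133 values moved by less than 1 SD between replicates. The other 7 were Tagln (-2.17) and Cnn1 (-4.25) after subtraction of the chromosome median, Cnn1 (-3.58), Lmod1 (-2.30) and Myh11 (-0.06) on log2(TPM + 1), and Cnn1 (-4.18) and Myh11 (-0.43) on log2(TPM + 0.1). On log2(TPM + 1), where the pseudocount shrinks low genes, Aoc3 (-3.21), Mef2c (2.46), Mylk3 (-1.41), Mamstr (1.14), Ppp1r14c (2.14), Ppp1r14a (-1.49), Kcnmb1 (-0.61) and Tek (0.91) were also over 1.5 times smaller in fold. The counts of members past the thresholds (6 lower, 4 past the fold cut-off, 0 higher) were the same in every refit. With a replicate block they were again 6, 4 and 0, and the 6 lists together had 44 lower and 32 higher genes in place of 41 and 29. The replicate numbers were not taken as pairs in the main fit. Deviations of same-numbered libraries correlated at 0.131, 0.0687 and 0.0451, and those of unlike-numbered libraries between -0.108 and 0.0401. The same-numbered values were the higher ones, and whether the numbers mark pairs was not tested. The range over all settings was -4.63 to -3.58 for Cnn1, -2.99 to -2.30 for Lmod1, -2.47 to -2.17 for Tagln and -2.39 to -2.35 for Myl9. It was -0.47 to -0.37 for Cald1, -0.51 to -0.46 for Cnn2, -0.09 to -0.01 for Smtn, 0.07 to 0.13 for Srf and -1.58 to -0.06 for Myh11, whose counts are too few to fix a value. Leaving out 1 library gave 37 to 40 lower and 24 to 30 higher genes over the 6 lists. Among 600 tested values of other named genes, 585 kept direction and call, 14 lost the call and 1 reversed, Mrtfa without miR-322/-503 replicate 2 (-0.03, from 0.18, with a range of -0.03 to 0.40 over libraries left out; the cause was not tested). Of 43 values relative to the chromosome median, which have no test, 4 moved by more than 1 SD, Acta2 (-1.25), Cspg4 (-0.15), Pdgfra (-0.91) and Pdgfrb (-1.16). The median of the members was -0.50 with limma on either TPM scale and -1.58 to -0.92 with 1 library left out. The rank of 8 or more of the 10 members by TPM was kept in each group when a library was left out, and all 10 ranks were the same by FPKM.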
